A study of Homo sapiens with 6 samples.

Results

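The genes described are 7 negative regulators of the tumour suppressor p53: MDM2, MDM4, PPM1D, CCNG1, RCHY1, COP1 and USP7. They were chosen by name, and every probe set whose platform annotation names 1 of them alone was taken, which gave 35 of 47481 probe sets and 7 of 17534 genes. Expression had been measured on Affymetrix PrimeView arrays, which read each transcript near its 3′ end with 1 or more probe sets. The cells were MM.1R, an established human myeloma line selected for resistance to glucocorticoids. On 3 arrays (addDrug in the titles) they had received epirubicin hydrochloride, an anthracycline that traps topoisomerase II on DNA, and on the other 3 they carried a short hairpin control (shCtrl). The submitters state that the drug was given to stop proliferation. No dose or length of treatment is given in the sources used here. Infection with the vector is named for the control arrays alone, so effects of the drug and of the vector cannot be told apart. No label says that replicates are separate cultures, so the p-values speak only for the spread among these arrays, which may be technical.

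p53 is a transcription factor that is stabilised after DNA damage, and it induces several of the genes that switch it off again. MDM2 is the ubiquitin ligase that marks p53 for degradation, and MDM4, its paralog, binds p53 and pairs with MDM2. PPM1D encodes WIP1, a phosphatase that removes damage-induced phosphates from p53 and its kinases, and CCNG1 encodes cyclin G1, which brings the phosphatase PP2A to MDM2. RCHY1 (PIRH2) and COP1 are further ubiquitin ligases of p53. USP7 (HAUSP) is a deubiquitinase that removes ubiquitin from MDM2, MDM4 and p53.

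MDM2 is known for 2 promoters, of which the inner, in the first intron, is the p53-responsive one. The RefSeq promoter windows (GRCh38.p14, 250 bases before to 50 after an annotated start) held 16 windows for the 7 genes, and every one of the 7 had at least 1. They were searched for the p53 response element consensus of 20 bases without a spacer, a pattern that reads the same on both strands, with up to 3 mismatches. Of all 35116 windows, 5.20% held such a match and 0.313% held at least 2. Matches were found in both windows of the inner MDM2 starts and in none of the other 14 windows of the 7 genes. These 2 inner windows overlap and hold the same 2 matches. Windows of the outer MDM2 starts, of CCNG1 and of RCHY1 overlap as well, so the 16 windows are not independent. In the inner MDM2 window there were 2 matches, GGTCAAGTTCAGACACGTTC with 2 mismatches, at chr12:68808923-68808942, and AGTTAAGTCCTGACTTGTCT with 3 mismatches, at chr12:68808961-68808980. The windows of PPM1D and CCNG1, the other members called higher below, are shown for comparison with both MDM2 windows. Capitals mark the p53 consensus matches in the inner MDM2 window and, in PPM1D, the cyclic AMP response element TGACGTCA, searched on both strands, which 1.85% of all windows hold. A match is a description of the letters, and no match says only that they are not in this window. All 4 stretches are the 250 bases before the start, on the plus strand.
MDM2 inner start, chr12:68808767-68809016: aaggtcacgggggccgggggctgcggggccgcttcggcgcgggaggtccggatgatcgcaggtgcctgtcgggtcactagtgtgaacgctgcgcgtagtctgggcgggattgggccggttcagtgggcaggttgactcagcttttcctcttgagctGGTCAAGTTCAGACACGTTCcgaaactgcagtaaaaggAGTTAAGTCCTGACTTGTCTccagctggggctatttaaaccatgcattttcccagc
MDM2 outer start, chr12:68807922-68808171: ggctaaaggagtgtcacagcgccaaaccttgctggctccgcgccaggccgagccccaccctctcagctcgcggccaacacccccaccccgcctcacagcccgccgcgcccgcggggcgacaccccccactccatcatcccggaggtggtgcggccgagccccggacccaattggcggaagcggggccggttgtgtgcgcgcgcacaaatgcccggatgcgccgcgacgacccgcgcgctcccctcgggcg
PPM1D, chr17:60599943-60600192: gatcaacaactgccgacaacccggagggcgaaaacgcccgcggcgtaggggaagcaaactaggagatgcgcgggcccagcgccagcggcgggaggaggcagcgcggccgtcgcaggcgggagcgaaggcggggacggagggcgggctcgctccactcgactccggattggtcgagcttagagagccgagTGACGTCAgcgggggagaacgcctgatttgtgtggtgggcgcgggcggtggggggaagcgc
CCNG1, chr5:163437321-163437570: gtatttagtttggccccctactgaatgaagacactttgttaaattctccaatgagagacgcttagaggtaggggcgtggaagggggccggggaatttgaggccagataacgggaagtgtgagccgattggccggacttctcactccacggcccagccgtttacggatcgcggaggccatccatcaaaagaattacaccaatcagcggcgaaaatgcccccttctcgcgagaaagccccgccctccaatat

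MDM2, PPM1D and CCNG1 rose with epirubicin, USP7 fell, and MDM4, RCHY1 and COP1 were not called. Calls were made with limma over all genes (Benjamini-Hochberg adjustment) and needed both an adjusted p below 0.05 and a difference of 1.3-fold or more, as in the series' design text. Each gene was read on its main probe set, the one with the highest mean over the 6 arrays. By that rule 3 of the 7 genes were higher, where 4.36% of all genes were, and 1 was lower, where 2.14% of all genes were. The 7 main probe sets were bright, from percentile 76.1 (RCHY1) to 95.8 (MDM2) of the mean level of all probe sets. The shares of all genes and probe sets given here include dim ones. With dim probe sets left out, 634 of 10087 genes were higher and 336 lower, and again 3 and 1 of the 7. The epirubicin and control arrays did not overlap in 5 of the 7 genes, against 43.8% of all genes, and at any fold 5 of the 7 had an adjusted p under 0.05, against 29.1% of all genes. Of the 35 probe sets, 20 were higher and 4 lower, against 3.65% and 2.62% of all probe sets. The groups did not overlap in 28 of the 35 (41.2% of all probe sets), and 28 had an adjusted p under 0.05 at any fold (25.1% of all probe sets).

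**Figure D1:**
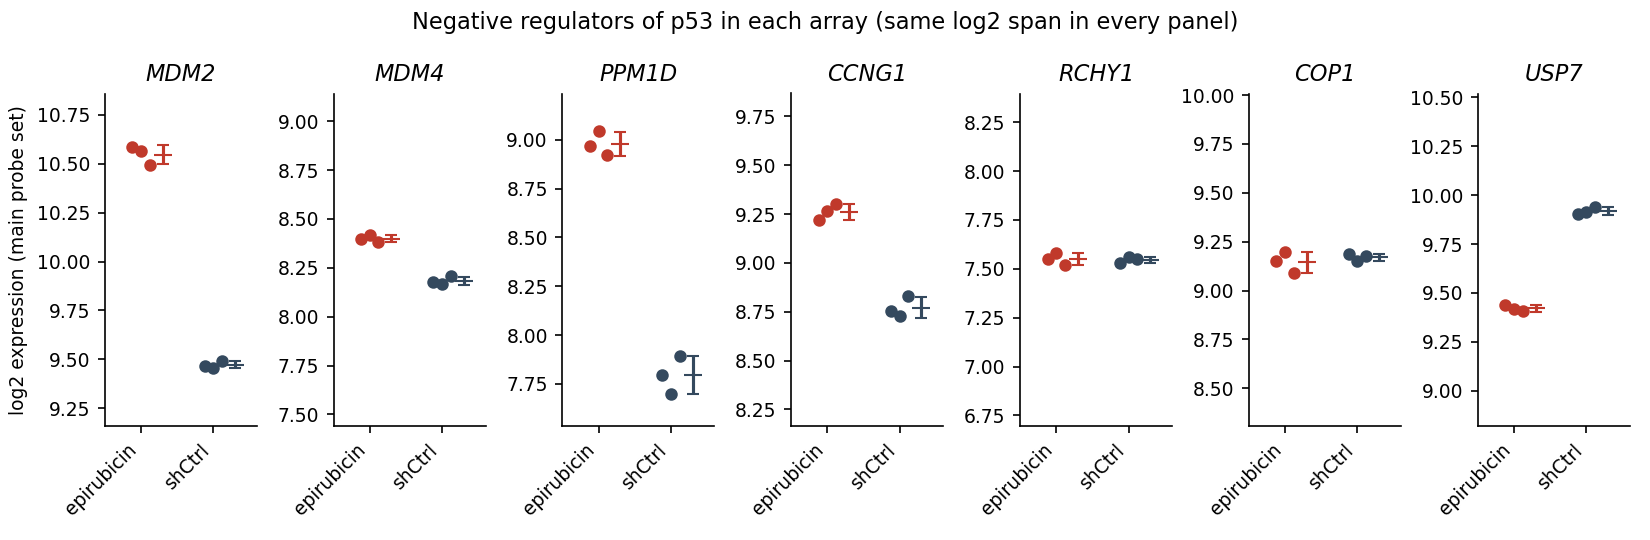
Log2 expression of the main probe set of each gene in each array (points), with the mean and SD of the 3 arrays beside them, epirubicin left of shCtrl. The vertical axis covers the same log2 span in every panel. The epirubicin arrays lie above the control arrays in MDM2, MDM4, PPM1D and CCNG1 and below them in USP7, and the groups overlap in RCHY1 and COP1.

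MDM2 (chr12:68808172-68850686, GRCh38.p14) rose 2.11-fold. Its log2 values were 10.58, 10.57 and 10.49 in epirubicin arrays, against 9.47, 9.46 and 9.49 in control arrays. Every epirubicin array lay about a doubling above every control array, and the spread within a group was small beside that gap (SD 0.05 in epirubicin arrays and 0.02 in control arrays, n = 3 each). The log2 change was 1.08 (SE 0.04, 95% CI 0.99 to 1.16, limma adjusted p = 1.37e-05), the 70th largest increase of all 17534 genes.

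All 11 probe sets of MDM2 were called higher, with log2 changes between 1.06 and 1.44 and a median of 1.27. The main probe set, although the brightest, had the second smallest change of the 11. The mean over the probe sets changed by 1.26 (SE 0.03). The largest change, 1.44 (CI 1.30 to 1.59), came from a probe set at 8.76, 8.90 and 8.80 in epirubicin arrays, against 7.30, 7.46 and 7.37 in control arrays. The smallest, 1.06 (CI 0.96 to 1.15), came from one at 8.23, 8.28 and 8.24 in epirubicin arrays, against 7.16, 7.23 and 7.19 in control arrays. These intervals do not overlap, so the size of the MDM2 increase differed between probe sets by more than the error of either, while its direction did not. In the manufacturer's naming, 7 of the 11 carry the mark of possible cross-hybridization (x) and 4 that of several transcripts of 1 gene (a). The a probe sets ranged from 1.08 to 1.39 and the x probe sets from 1.06 to 1.44. Which MDM2 transcripts each probe set reads was not examined here.

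**Figure D2:**
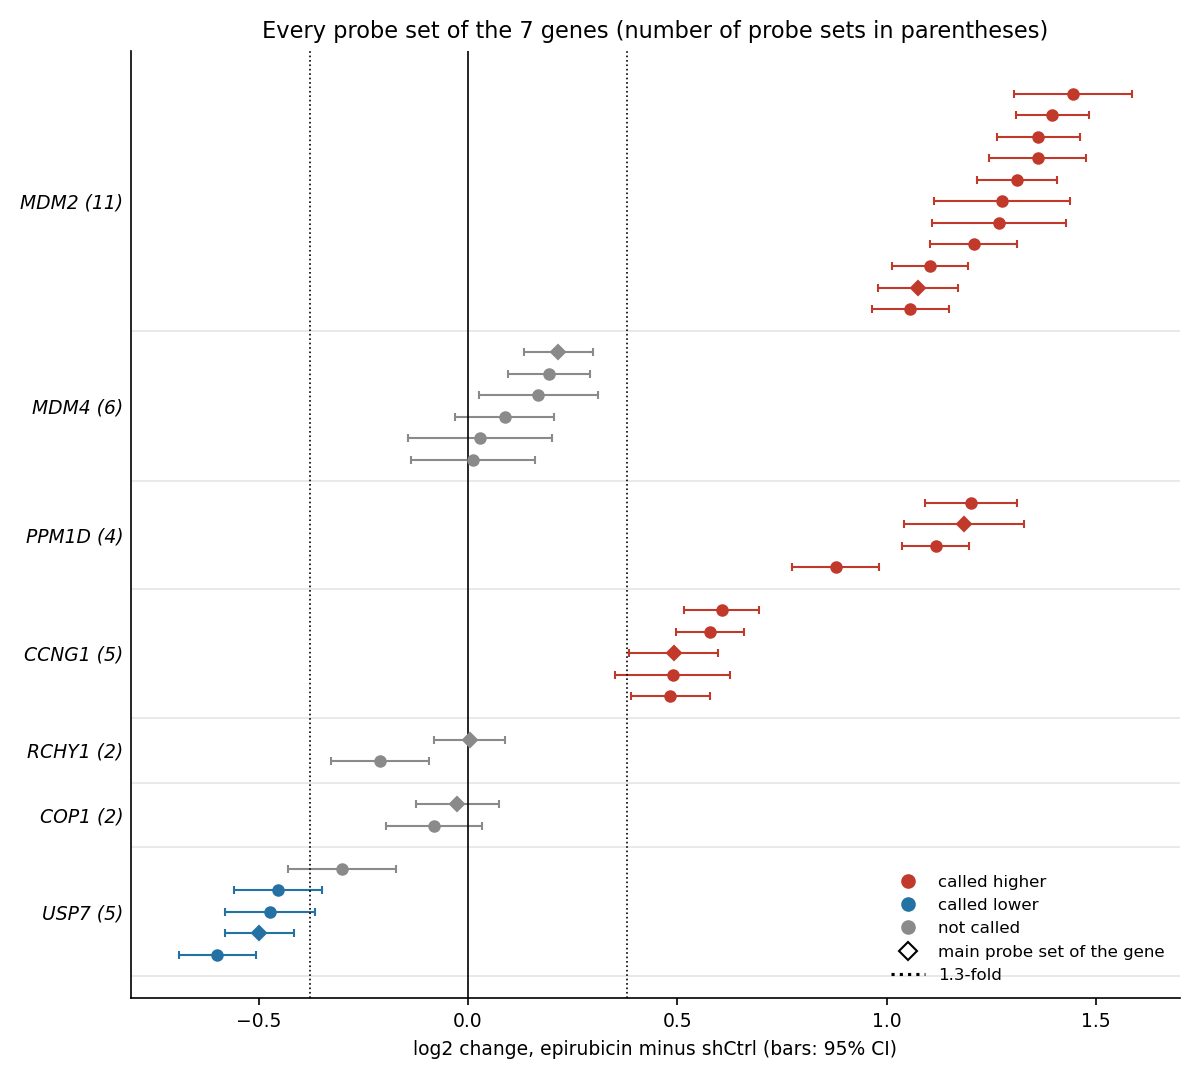
Log2 change, epirubicin minus shCtrl, of all 35 probe sets, grouped by gene, with the 95% CI from limma as bars. Diamonds are main probe sets, and dotted lines mark 1.3-fold. All probe sets of MDM2, PPM1D and CCNG1 lie right of the upper line and 4 of 5 of USP7 left of the lower line, while those of MDM4, RCHY1 and COP1 lie between the lines.

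MDM4 (chr1:204516406-204558120), the paralog of MDM2 that has no strong ligase activity of its own, was not called. Its main probe set read 8.40, 8.42 and 8.38 in epirubicin arrays, against 8.18, 8.17 and 8.21 in control arrays. The groups did not overlap and the adjusted p was under the threshold (limma adjusted p = 0.00271), but the log2 change of 0.22 (CI 0.14 to 0.29), a 1.16-fold difference, lay under the fold threshold. All 6 MDM4 probe sets had a change above 0, from 0.01 to 0.22, and 2 of the 6 had an adjusted p under 0.05. The dimmest, at 5.05, 5.00 and 5.00 in epirubicin arrays and 5.06, 5.09 and 4.83 in control arrays, lay below the median of all values, 5.54. The intervals of the 6 MDM4 probe sets all ended below those of the 11 MDM2 probe sets.

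The increase of MDM2 exceeded that of MDM4 by 0.86 on the log2 scale. The difference between both genes within an array varied by an SD of 0.04 in epirubicin arrays and 0.002 in control arrays (n = 3 each; two-sided exact permutation test, p = 0.1, which is the lowest p that 6 arrays can give). It was one of 3 such comparisons, with an adjusted p of 0.15. As means over probe sets the difference was 1.14.

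PPM1D (chr17:60600193-60666280) rose 2.27-fold. Its main probe set read 8.97, 9.04 and 8.92 in epirubicin arrays, against 7.79, 7.70 and 7.89 in control arrays. The control arrays of PPM1D were the most spread of the 7 genes' main probe sets, at an SD of 0.10, and still lay far below the epirubicin arrays. The log2 change was 1.18 (SE 0.06, CI 1.04 to 1.33, limma adjusted p = 5.38e-05), the 53rd largest increase of all genes. All 4 probe sets were called higher, at 1.20, 1.18, 1.12 and 0.88. The last, the dimmest of the 4, read 7.30, 7.24 and 7.35 in epirubicin arrays, against 6.45, 6.42 and 6.38 in control arrays, and its interval (0.77 to 0.98) lay below those of the other 3.

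The change of PPM1D exceeded that of MDM4 by 0.97 on the log2 scale (exact permutation test, two-sided p = 0.1 with n = 3 each, adjusted p = 0.15 over the 3 comparisons). MDM2 and PPM1D could not be ranked: on main probe sets the change of MDM2 minus that of PPM1D was -0.11 (exact permutation test, two-sided p = 0.2 with n = 3 each, adjusted p = 0.2), and on means over probe sets it was 0.16.

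CCNG1 (chr5:163437571-163457640) rose 1.41-fold, a smaller increase. Its main probe set read 9.22, 9.27 and 9.30 in epirubicin arrays, against 8.75, 8.73 and 8.83 in control arrays. No epirubicin array overlapped a control array, and the log2 change was 0.49 (SE 0.04, CI 0.39 to 0.59, limma adjusted p = 0.000379). All 5 probe sets were called higher, from 0.48 to 0.61. The one with the largest change read 7.90, 7.95 and 7.86 in epirubicin arrays, against 7.29, 7.31 and 7.30 in control arrays. The 95% intervals of the CCNG1 probe sets all ended below those of the MDM2 and PPM1D probe sets. The difference in size between these genes was not tested otherwise.

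The other ubiquitin ligases of p53 were not called. RCHY1 (chr4:75479033-75514715) read 7.55, 7.58 and 7.52 in epirubicin arrays, against 7.53, 7.56 and 7.55 in control arrays. The groups overlapped, and the log2 change was 0.004 (CI -0.07 to 0.08, limma adjusted p = 0.944). Its other probe set lay lower in epirubicin arrays, at 6.96, 6.90 and 7.03, than in control arrays, at 7.11, 7.21 and 7.19. These values did not overlap, but the log2 change of -0.21 (CI -0.33 to -0.09, limma adjusted p = 0.0216) was under the fold threshold. The 2 RCHY1 probe sets thus differed from each other. Their mean changed by -0.10 (limma adjusted p = 0.0426), which was under the fold threshold and not called. COP1 (chr1:175944831-176207286) read 9.15, 9.20 and 9.09 in epirubicin arrays, against 9.19, 9.15 and 9.17 in control arrays. Those groups overlapped too, with a log2 change of -0.03 (CI -0.12 to 0.07, limma adjusted p = 0.679), and the second COP1 probe set changed by -0.08 (CI -0.20 to 0.03). For the main probe sets of both genes the intervals exclude a change of 1.3-fold in either direction.

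USP7 (chr16:8892097-8963906) fell, and was the one member called lower. Its main probe set read 9.44, 9.42 and 9.41 in epirubicin arrays, against 9.90, 9.91 and 9.94 in control arrays. The SD was 0.02 in either group (n = 3 each), so the gap of 0.50 was many times the spread. The log2 change was -0.50 (SE 0.03, CI -0.57 to -0.43, limma adjusted p = 0.000104), a 1.41-fold decrease and the 172nd largest of all genes. Of the 5 USP7 probe sets 4 were called lower, with log2 changes of -0.60, -0.50, -0.47 and -0.45. The largest decrease was on a probe set at 8.50, 8.57 and 8.52 in epirubicin arrays, against 9.12, 9.16 and 9.10 in control arrays. The fifth, the dimmest, read 6.34, 6.46 and 6.51 in epirubicin arrays and 6.71, 6.71 and 6.79 in control arrays. It did not overlap between the groups either, and its change of -0.30 (limma adjusted p = 0.00773) was under the fold threshold.

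The main probe sets of PPM1D, CCNG1, COP1 and USP7 carry the manufacturer's mark (s) of probes shared with transcripts of other genes. For PPM1D, CCNG1 and USP7 the call did not rest on them, as the 3 other PPM1D probe sets, the 4 other CCNG1 probe sets and 3 of the 4 other USP7 probe sets were called in the same direction. The array bulk-averages all cells of a sample, so fewer cells with a transcript and less of it per cell cannot be told apart.

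Genes around the 7 were counted by their roles. Of 25 listed direct p53 target genes other than the members, 23 were analysed here. In limma 22 of the 23 were higher and 0 lower on main probe sets, against 4.36% and 2.14% of all genes. At an unadjusted p under 0.05 at any fold the counts were 23 and 0. The share of all genes at an unadjusted p was not counted, so such counts cannot be weighed against it, here or below. On means over probe sets 20 of the 23 were higher, as TP53INP1 (0.29) and RRM2B (0.30) were not called. The median log2 change of the 23 on main probe sets was 1.08, where that of all genes was 0.02. PHLDA3, a repressor of AKT, had the largest change (2.15, SE 0.05). The proapoptotic gene PMAIP1 (NOXA) changed by 1.98 (SE 0.03), the CDK inhibitor gene CDKN1A by 1.88 (SE 0.03) and DDB2, a DNA damage sensor of nucleotide excision repair, by 1.79 (SE 0.04). The smallest change of a called target was that of the proapoptotic gene BAX (0.44, CI 0.36 to 0.52). The cytokine gene GDF15 (0.36, CI 0.26 to 0.47) was the 1 that was not called, with an adjusted p under the threshold (limma adjusted p = 0.00157) and a fold under 1.3. Of its 5 probe sets, 1 was called higher. The main probe set changes of MDM2 and PPM1D thus stood near the middle of this list, and that of CCNG1 near its lower end. The list was chosen with these results known and is no independent evidence of a direction.

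Of 16 kinases, acetyltransferases and binding proteins that activate p53, 0 were called higher or lower by limma at the fold threshold, against 4.36% and 2.14% of all genes. At any fold 8 of the 16 had an adjusted p under 0.05, 2 upward and 6 downward, against 29.1% of all genes in either direction. At an unadjusted p under 0.05 the counts were 3 and 7. The log2 changes of the main probe sets ran from -0.33 to 0.22 with a median of 0.02. As means over probe sets 0 were again called higher or lower, but several signs turned. ATM went from 0.09 to -0.09, MAPK8 from 0.10 to -0.20 and TP53BP1 from 0.11 to -0.08. CSNK1A1 went from 0.09 to -0.03 and CREBBP from 0.02 to -0.01, and none turned upward. Of the 4 probe sets of PRKDC, 1 was called lower. The checkpoint kinase gene CHEK1 changed by 0.01 (CI -0.08 to 0.11) and the acetyltransferase gene CREBBP by 0.02 (CI -0.05 to 0.09). CHEK2, a kinase that phosphorylates p53 after DNA breaks, named after its value was seen, had the lowest change of the list, -0.33 (limma adjusted p = 0.00304).

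Of 28 other ligases, deubiquitinases and repressors that act on p53, MDM2 or MDM4, 1 was higher and 1 lower at the fold threshold. These shares were near those of all genes (4.36% and 2.14%), and the median change was -0.03. At any fold 7 of the 28 were higher and 12 lower at a limma adjusted p under 0.05, against 29.1% of all genes in either direction. The gene called lower was AURKA, a mitotic kinase that phosphorylates p53, at 7.86 ± 0.02 in epirubicin arrays, against 8.91 ± 0.04 in control arrays (SD, n = 3 each; log2 change -1.06, limma adjusted p = 1.29e-05). The gene called higher was the transcriptional repressor gene BCL6 (0.55, SE 0.10), on 1 of 5 probe sets. It lay below the median of all values in both groups, at 4.74 in epirubicin arrays and 4.19 in control arrays. As a mean over its probe sets BCL6 was not called. DAXX, which holds USP7 and MDM2 together, and the ligase gene SYVN1 each changed by -0.02. SIAH1, a ubiquitin ligase gene, and CUL9, a cullin that binds p53 in the cytoplasm, both named after their values were seen, lay just under the fold threshold at 0.37 and 0.38. The count of higher genes varied with the setting. It was 3 without epirubicin replicate 1, 2 without epirubicin replicate 3 or any 1 of the control arrays, 2 after quantile normalization and 0 on means over probe sets.

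**Figure D3:**
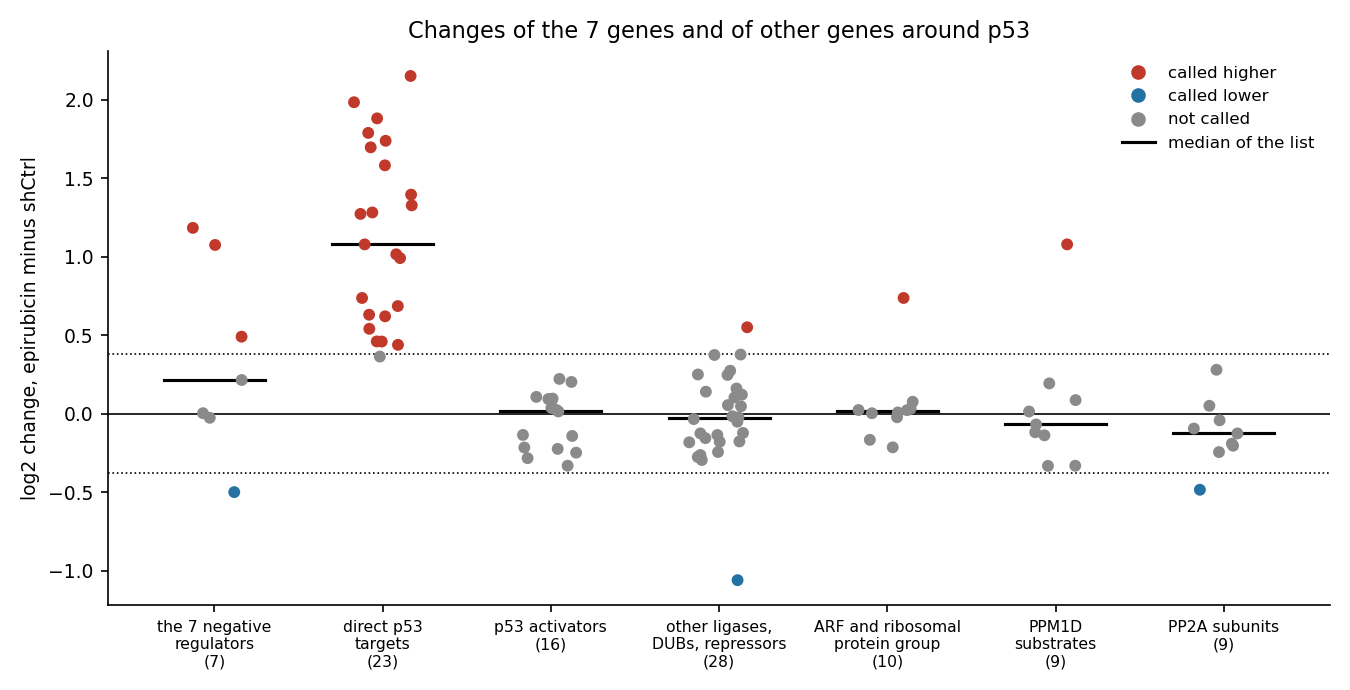
Log2 change, epirubicin minus shCtrl, of the 7 negative regulators and of the genes of 6 lists around p53 (1 point per gene, main probe set). The black bar is the median of each list, the dotted lines mark 1.3-fold, and the number analysed is in parentheses. The direct p53 targets lie almost wholly above the upper line (22 of 23).

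The partners of single members are given beside the same shares of all genes, 4.36% higher and 2.14% lower at the fold threshold. With 9 or 10 genes a list, counts of 0 or 1 do not set a list apart from all genes. At any fold, 2744 of all 17534 genes had a limma adjusted p under 0.05 upward and 2362 downward. Of 10 genes that hold MDM2 in check, namely the ARF locus CDKN2A and ribosomal and nucleolar proteins, 1 was higher and 0 lower, with a median of 0.02. At any fold 1 was higher and 2 lower at a limma adjusted p under 0.05, and 2 and 2 at an unadjusted one. The higher was RPS27L, a ribosomal protein homologue that binds MDM2, at 0.74 (SE 0.04) on 1 of 2 probe sets; it also stands among the direct p53 targets. RPS14 and RPL11, ribosomal proteins that bind MDM2, changed by 0.004 and 0.01 on their main probe sets. The 3 probe sets of RPS14 differed, as 1 was called lower and their mean changed by -0.26, which was not called.

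Among 9 genes whose proteins WIP1 dephosphorylates, 1 was higher and 0 lower, with a median of -0.07. At any fold 2 were higher and 2 lower at a limma adjusted p under 0.05, and 2 and 4 at an unadjusted one. The 1 called at the fold threshold was XPC, a damage sensor of nucleotide excision repair and likewise a p53 target. XPC lay at 9.39 in epirubicin arrays and 8.31 in control arrays (log2 change 1.08, SE 0.04, 2 of 2 probe sets). RELA, a subunit of NF-kB, changed by -0.07 (CI -0.15 to 0.01). Of 9 subunits of PP2A, the phosphatase that cyclin G1 works with, 0 were higher and 1 lower (1 and 6 at an unadjusted p), with a median of -0.12. It was the scaffold subunit gene PPP2R1B (-0.48, SE 0.06, limma adjusted p = 0.00175), lower on 3 of 4 probe sets. As a mean over its probe sets PPP2R1B changed by -0.32 and was not called, which left 0 of the 9 lower. Probe sets called lower were also found in PPP2CA (2 of 3) and PPP2R5D (2 of 5). Their changes were -0.09 and -0.20 on main probe sets and -0.32 and -0.33 as means, and neither gene was called. The PP2A subunit genes PPP2R5E and PPP2CB changed by -0.04 and 0.05.

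The genes most like each called member were taken as those at the smallest Euclidean distance over the 6 arrays, each gene centred on its own control mean. For MDM2 they were ANXA4, which encodes a calcium-dependent phospholipid-binding protein, WWOX, an oxidoreductase gene, and C3AR1, the receptor of complement C3a, at distances of 0.096, 0.098 and 0.10. For PPM1D they were the fibrillin gene FBN2, POPDC2 and the transcription factor gene TFEC, at 0.14, 0.17 and 0.18. For CCNG1 they were SLC67A1, the small GTPase gene RAB3B and the transcription factor gene TCF4, at 0.044, 0.044 and 0.062. For USP7 they were SPDL1, an adaptor of dynein at kinetochores, AMD1, an enzyme of polyamine synthesis, and the spectrin gene SPTBN1, at 0.032, 0.040 and 0.048. With 2 groups of 3 arrays this likeness is mostly likeness of the size of change, which was 1.08 to 1.10 in the 3 genes nearest MDM2 and -0.51 to -0.50 in the 3 nearest USP7.

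Over all probe sets, which are not independent of each other, the correlation between arrays was 0.998 within groups and 0.994 to 0.995 between them. Of 10 plasma cell markers, 0 were higher and 2 lower, against 4.36% and 2.14% of all genes. The 2 were CD38 (log2 change -1.18, SE 0.05) and IRF4 (-0.49, SE 0.03). At any fold 2 of the 10 were higher and 4 lower at a limma adjusted p under 0.05, against 29.1% of all genes in either direction. The log2 values of the 10 ran from 5.25 to 13.27 in epirubicin arrays and from 6.42 to 13.27 in control arrays. Of 6 myeloid markers 1 was higher and 0 lower, beside the same shares of all genes. The higher was ITGAM, at 6.99 in epirubicin arrays and 3.25 in control arrays. The myeloid markers CD14, LYZ and FCGR3A lay between 1.84 and 2.95 in epirubicin arrays and between 1.85 and 2.79 in control arrays, below the lower quartile of all values, 3.86. CSF1R and MPO lay above that quartile, CSF1R at 5.07 in either group and MPO at 5.23 in epirubicin arrays and 5.18 in control arrays, and neither was called. The summed log2 value of the 6 was 24.52 to 24.66 in epirubicin arrays and 20.27 to 20.69 in control arrays. ITGAM alone, with a log2 change of 3.75, made up most of that difference, and the other 5 changed by -0.01 to 0.16. The part of these markers in the changes above was not tested. None of the 18 T and NK, B, stromal and epithelial cell markers was called at the fold threshold in limma. At any fold 2 of the 18 had an adjusted p under 0.05, both upward, against 29.1% of all genes. An unadjusted p under 0.05 was found in 8 of the 18, 7 of them upward, a count with no share of all genes beside it.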

How the data were processed

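The values used were the authors' deposited log2 expression values, 1 per probe set and array, for 3 epirubicin and 3 control (shCtrl) arrays of MM.1R cells. That they are on a log2 scale follows from their range, 1.41 to 13.73. The affy package is named in the submitters' processing notes; how background, normalization and probe summary were handled is not given in the sources used here. The medians of the arrays (5.52 to 5.57) differed little, and the values were used as they are, so changes are relative to the bulk of transcripts. The number of arrays limits the precision. Detection calls were not used here.

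The platform annotation named 1 gene for 43976 of 47481 probe sets, with symbols updated by Entrez number through RefSeq for 43954. Groups came from the sample titles. limma 3.58.1 in R 4.3.3 (lmFit, eBayes, no covariate) was fitted over all 47481 probe sets and over the main probe sets of 17534 genes, with Benjamini-Hochberg adjustment. The fit was tested on simulated data. Differences between members used exact permutation over arrays. The members, the gene lists and the tests were chosen with earlier results of these data known. Of each list the text names up to 4 called genes a direction with the largest change and 2 with the smallest change. Other list genes named, such as those whose probe sets or means differed, fall outside this rule. Of these only CHEK2, SIAH1 and CUL9 are marked. Listed genes without values are not analysed here. Alternatives were quantile normalization, median centring, leaving out dim probe sets, a trended robust prior, the replicate number as a block, no fold threshold, means over probe sets and leaving out each array.

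Same-numbered epirubicin and control arrays did not deviate together from their group means (correlations over probe sets of -0.03, 0.02 and 0.001). No pairing by replicate number was therefore seen in these values. Whether the arrays were paired by design cannot be told from this.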

Additional observations from a re-analysis of the deposited data

How the results depend on the processing

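The calls of MDM2, PPM1D and CCNG1 as higher and of USP7 as lower held under all 13 alternatives, with log2 changes of 1.04 to 1.26 for MDM2, 1.09 to 1.23 for PPM1D, 0.46 to 0.53 for CCNG1 and -0.53 to -0.47 for USP7. MDM4 was called, at 0.22, only without a fold threshold. The sign of genes near 0 turned: RCHY1 was -0.029 after median centring, -0.10 as a mean over probe sets and -0.011 to 0.019 when each array was left out (below 0 without epirubicin replicate 2, at -0.011, or shCtrl replicate 1, at -0.0042), and COP1 was -0.051 to 0.0029 when each array was left out (above 0 without epirubicin replicate 3). The change of MDM2 minus that of PPM1D turned to 0.16 as means over probe sets. Without a fold threshold, more list members were called: 2 p53 activators higher and 6 lower, 7 other ligases, deubiquitinases and repressors higher and 12 lower, 2 genes of the ARF and ribosomal protein group lower, 2 WIP1 substrates higher and 2 lower, and 1 PP2A subunit higher and 4 lower. Of all 17534 genes, 2744 were then higher and 2362 lower. The count of other ligases, deubiquitinases and repressors called higher was 2 after quantile normalization, 0 as means over probe sets and 1 to 3 when each array was left out. That of PP2A subunits called lower was 0 as means over probe sets. That of direct p53 targets called higher was 20 as means over probe sets and 22 or 23 when each array was left out. The cause was not tested beyond the construction of each alternative. With the replicate number as a block, 20 probe sets of the members were again higher and 4 lower, and 3 genes higher and 1 lower. The differences between members then had p = 0.25 in an exact sign-flip permutation test, the smallest that 3 pairs allow. Median centring moved the split over all probe sets to 1478 higher and 1633 lower, against 1735 and 1242.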
